A study of Mus musculus with 15 samples.

Results

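Genes that mark the walls of brain blood vessels were followed in the RNA of aged mice with a mutant ribosomal protein. The set holds 32 genes, of which 20 are typical of endothelial cells and 12 of mural cells, that is of pericytes and smooth muscle. They were taken by gene symbol from the 22524 identifiers in each count table, and all 32 passed the low-count filter. The study compared 7 animals labelled Rps9 D95N / Rps9 WT heterozygous with 8 littermates labelled Rps9 WT / Rps9 WT. All 15 were C57BL/6 females aged 18 months, and each gave 1 library. D95N is a substitution that lowers the accuracy of translation, in the small-subunit ribosomal protein RPS9, and the heterozygotes keep 1 normal copy. The spread behind every p-value is that between animals.

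Endothelial cells of the brain form a barrier: claudins and other junction proteins seal the gaps between them, and transporters in their membranes decide what passes. Pericytes sit on capillaries and signal with the endothelium through PDGF, angiopoietin, Notch and TGF-beta. Smooth muscle cells wrap arterioles and contract through actin and myosin forms of their own. Because whole tissue was sequenced, fewer cells of a type and less RNA per cell cannot be told apart.

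Library totals ran from 23349381 to 34587082 counts. The series design names brain cortex, whereas the tissue field of every sample names skeletal muscle. Neuronal markers summed to between 6928 and 8459 CPM (counts scaled to library size) in D95N libraries and between 6967 and 7616 CPM in wild-type libraries. The 9 skeletal muscle markers summed to between 61.7 and 84.8 CPM in D95N and between 57.8 and 113 CPM in wild type. Pvalb, which cortical interneurons also express, made up 58.9 CPM of that in D95N and 58.8 CPM in wild type, and Acta1 5.88 CPM in D95N and 6.46 CPM in wild type. The other 7 muscle markers averaged at most 2.11 CPM in D95N and 1.64 CPM in wild type, with Ckm, the creatine kinase of muscle, at 0.0413 CPM in D95N and 0.534 CPM in wild type. Neuronal sums exceeded muscle sums in every library, and the tissue is called cortex here. On the first principal component, which held 37.8% of the variance, D95N 42 stood at 13.9, within the wild-type range of 10.6 to 19.4. D95N 41 stood at -4.89, and the other 5 D95N libraries lay between -32.5 and -22.5. A fit without both libraries, chosen after the data were seen, called 5 endothelial and 4 mural members lower. Slco1a4 and Anpep were called in it, and Ly6a, Ly6c1 and Kcnj8 were not.

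In D95N cortex, 6 of the 20 endothelial members were lower and 1 was higher, and 4 of the 12 mural members were lower and 1 was higher, at an adjusted p of 0.05. The lower endothelial members were the junction protein Ocln, the receptors Tek and Ramp2, the efflux pump Abcb1a and the surface proteins Ly6a and Ly6c1, and the higher one was the secreted Egfl7. The lower mural members were Acta2, Myh11, Vtn and Kcnj8, and the higher one was Notch3. Folds of these 12 genes ran from 0.671 to 1.24. The test was edgeR's quasi-likelihood test, with Benjamini-Hochberg adjustment over all 14989 genes tested.

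Many genes outside the vessel set were called too. Of all tested genes, 26.8% were called in either direction, 15.2% higher and 11.6% lower. The lower share was 30% of the endothelial members and 33.3% of the mural members. The higher share was 5.0% of the endothelial and 8.33% of the mural members. Scaling by library totals turned the whole-table split from 2272 higher and 1744 lower into 1808 higher and 2536 lower, and under that scaling 7 endothelial and 5 mural members were lower, with 1 of each higher. The median log2 fold change was -0.23 over endothelial members, -0.12 over mural members and -0.0078 over all tested genes. The log2 fold change was negative in 16 endothelial and 9 mural members, whether or not they were called. An unadjusted p under 0.05 was reached by 9 endothelial and 7 mural members. The shares of all tested genes for these counts were not taken. The unadjusted share can be no smaller than the 26.8% called after adjustment.

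**Figure D1:**
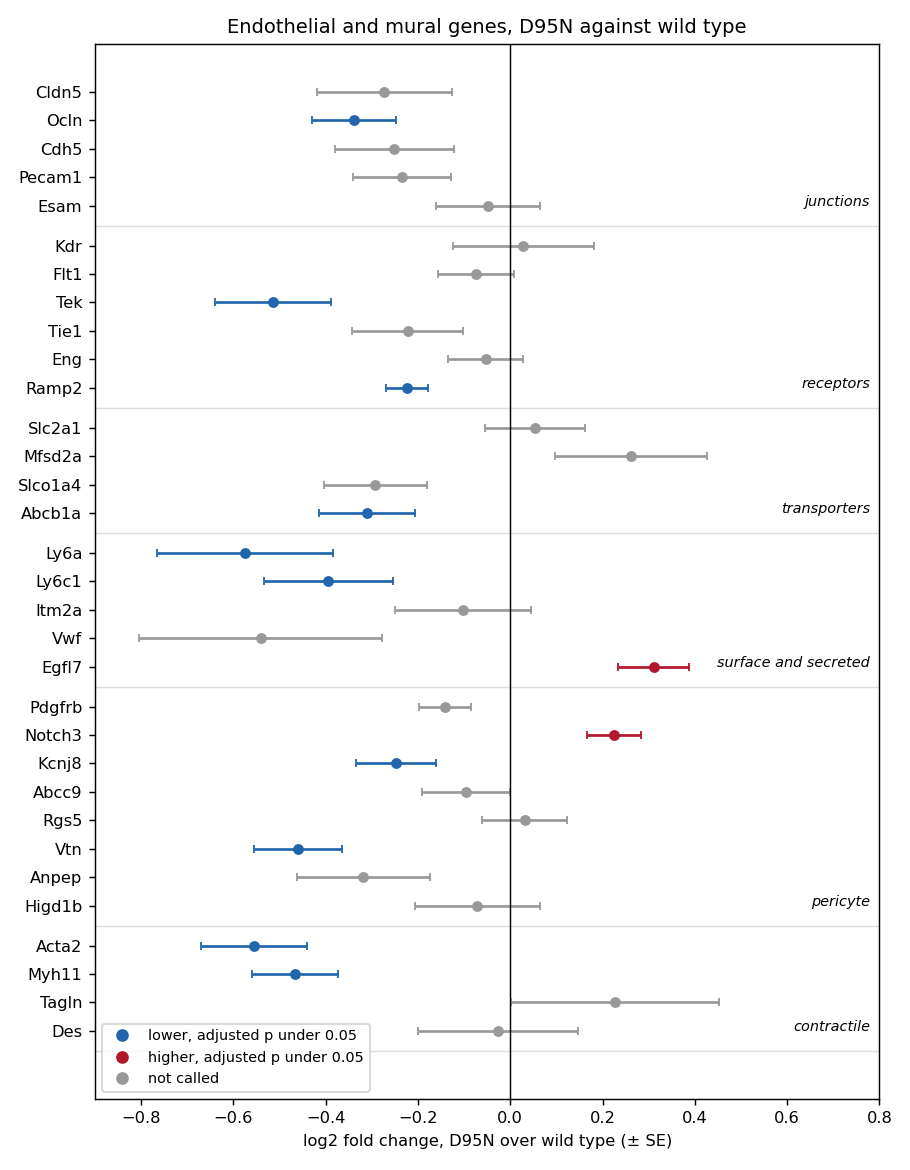
Log2 fold change of D95N over wild type for the 32 members, grouped by role, with bars for the standard error. Blue points were lower and red points higher at an adjusted p under 0.05 (edgeR), and grey points were not called. Most points lie left of 0, with Ly6a at -0.58 and Acta2 at -0.56, while Egfl7 at 0.31 is the called point farthest right.

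The sequence around a start site is only 1 of the places where the transcription factors of vessel cells can act. RefSeq promoters on GRCm38.p6, which run from 250 bases before to 50 bases after the start, were found for 22 of the 32 members. They were searched on both strands for the CArG box, the motif bound by serum response factor in smooth muscle genes, for a CArG-like form in which 1 of the 6 centre bases may be G or C, for CCGGAA, the core bound by ETS factors in endothelial genes, and for TGGGAA, a core of the Notch partner RBPJ. The Acta2 promoter lies at chr19:34255324-34255623 on the minus strand and is shown because Acta2 was the one member whose groups did not overlap. Capitals mark its 2 CArG-like matches, which end 75 and 25 bases before the start, and a TGGGAA overlaps the second. The Vtn promoter lies at chr11:78498870-78499169 on the plus strand, and capitals mark 3 matches to TGGGAA, 1 of them on the other strand. The Ocln promoter shown, 1 of 2 listed for the gene, lies at chr13:100552669-100552968 on the minus strand. Capitals mark CCGGAA, which the other Ocln window lacks. A CArG-like match in the Ocln window shown is left in lower case. The Egfl7 promoter lies at chr2:26580833-26581132 on the plus strand, is the first of 3 listed for the gene and is shown for the 1 endothelial member that was higher. Its capitals mark TGGGAA, which overlaps a CArG-like match and is absent from the other windows of Egfl7. An intron of Egfl7 is known to hold miR-126, an endothelial microRNA that these libraries were not counted for. Its mature form lies at chr2:26591402-26591423 on the plus strand, and capitals mark the seed, bases 2 to 8.
Acta2: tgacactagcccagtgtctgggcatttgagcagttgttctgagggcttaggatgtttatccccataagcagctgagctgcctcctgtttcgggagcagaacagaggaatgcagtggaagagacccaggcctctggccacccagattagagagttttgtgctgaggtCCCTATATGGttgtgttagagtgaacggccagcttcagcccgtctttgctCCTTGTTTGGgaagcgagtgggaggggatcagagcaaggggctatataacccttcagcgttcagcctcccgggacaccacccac
Vtn: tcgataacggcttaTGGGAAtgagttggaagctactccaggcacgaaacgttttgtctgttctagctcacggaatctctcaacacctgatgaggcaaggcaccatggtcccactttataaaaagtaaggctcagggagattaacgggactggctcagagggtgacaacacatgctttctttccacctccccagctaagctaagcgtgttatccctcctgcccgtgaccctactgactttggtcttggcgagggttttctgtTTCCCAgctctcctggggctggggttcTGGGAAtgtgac
Ocln: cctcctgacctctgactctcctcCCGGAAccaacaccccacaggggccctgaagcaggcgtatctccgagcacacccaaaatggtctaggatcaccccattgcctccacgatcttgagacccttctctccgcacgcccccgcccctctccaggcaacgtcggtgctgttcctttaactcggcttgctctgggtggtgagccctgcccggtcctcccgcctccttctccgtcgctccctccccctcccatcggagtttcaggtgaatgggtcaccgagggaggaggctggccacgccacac
Egfl7: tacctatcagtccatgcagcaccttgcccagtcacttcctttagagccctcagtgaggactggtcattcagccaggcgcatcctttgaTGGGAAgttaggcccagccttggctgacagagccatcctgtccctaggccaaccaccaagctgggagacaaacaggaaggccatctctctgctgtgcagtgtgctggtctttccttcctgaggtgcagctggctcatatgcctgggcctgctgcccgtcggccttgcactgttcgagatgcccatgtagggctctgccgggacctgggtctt
mmu-miR-126a-3p: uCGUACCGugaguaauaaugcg

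None of the member promoters held the CArG box itself, which was in 1.63% of all 32851 promoters. The CArG-like form was in 8.50% of all promoters, in 6 of 14 endothelial genes with a promoter (Egfl7, Eng, Kdr, Ocln, Slco1a4 and Tek) and in 1 of 8 mural genes (Acta2). CCGGAA was in 14.9% of all promoters and in those of Kdr and Ocln. TGGGAA was in 25.6% of all promoters, in 3 endothelial genes (Egfl7, Kdr and Tie1) and in 4 mural genes (Abcc9, Acta2, Kcnj8 and Vtn). Endothelial genes with several listed starts had more chances of a match, and a match is a description of letters only.

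Of the 5 junction genes, 1 was lower and none was higher, with a median log2 fold change of -0.25. Ocln encodes occludin, a membrane protein of tight junctions, and lies on chromosome 13 from 100496507 to 100552718 (gene positions are GENCODE's on GRCm38). It had 7.96, 9.62 and 10.6 CPM as lowest, median and highest values in D95N, against 10.002, 11.5 and 14.3 CPM in wild type. The groups overlapped, with 5 of 7 D95N libraries below every wild-type library. Means were 9.17 ± 1.16 CPM over the 7 D95N libraries and 11.6 ± 1.54 CPM (SD) over the 8 wild-type ones, or -0.34 ± 0.09 on the log2 fold scale (SE; edgeR, adjusted p = 0.0116). Cldn5, the main claudin of the blood-brain barrier and the junction member with most counts, had 17.4, 22.8 and 30.8 CPM in D95N against 19.8, 27.0 and 40.9 CPM in wild type. Cldn5 was not called, at a log2 fold change of -0.27 ± 0.15 (edgeR, adjusted p = 0.174), and its groups overlapped widely. Cdh5, the cadherin of endothelial adherens junctions, averaged 12.4 CPM in D95N and 14.8 CPM in wild type. Pecam1, an adhesion molecule between endothelial cells, averaged 19.8 CPM in D95N and 23.2 CPM in wild type. Esam, a related adhesion molecule, averaged 14.1 CPM in D95N and 14.6 CPM in wild type. None of these 3 was called.

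Among 6 receptor genes, Tek and Ramp2 fell and 4 were not called, with a median log2 fold change of -0.15. Tek encodes TIE2, the receptor of the angiopoietins, on chromosome 4 from 94739289 to 94874976. Its lowest, median and highest values were 7.04, 7.64 and 12.2 CPM in D95N, against 10.6, 12.5 and 14.7 CPM in wild type. Below all wild-type libraries lay 5 of 7 D95N libraries, while the remaining 2 reached into the wild-type range. Tek averaged 8.86 ± 2.13 CPM over the 7 D95N libraries and 12.7 ± 1.72 CPM (SD) over the 8 wild-type ones (log2 fold change -0.51 ± 0.13 SE; edgeR, adjusted p = 0.00667). Ramp2, which partners the calcitonin-receptor-like receptor to form a receptor for adrenomedullin, lies on chromosome 11 from 101246028 to 101259546. In D95N it had 42.4, 45.4 and 52.5 CPM, against 48.2, 54.1 and 56.0 CPM in wild type. The single D95N library inside the wild-type range was D95N 42, and the other 6 lay below it. Ramp2 averaged 45.8 ± 3.19 CPM in D95N and 53.5 ± 2.78 CPM in wild type (log2 fold change -0.22 ± 0.05; edgeR, adjusted p = 0.00238). Vps25 overlaps Ramp2 on the same strand and was lower as well, at -0.17 (edgeR, adjusted p = 0.0210), so reads of the shared stretch may be split between them.

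Receptors for VEGF did not pass the test. Flt1, the VEGF receptor 1 and the receptor member with most counts, had 62.7, 76.9 and 84.7 CPM in D95N against 68.3, 74.0 and 101 CPM in wild type, at a log2 fold change of -0.07 (edgeR, adjusted p = 0.527). Kdr, the VEGF receptor 2, stood at 0.03 (edgeR, adjusted p = 0.911), but D95N 50 alone had 22.7 CPM while the other D95N libraries ended at 14.02 CPM, and leaving it out gave -0.15. Tie1, a relative of TIE2, averaged 9.62 CPM in D95N and 11.2 CPM in wild type, and Eng, a co-receptor for TGF-beta family ligands, averaged 25.7 CPM in D95N and 26.7 CPM in wild type. Neither was called.

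Of the 4 transporter genes, only Abcb1a was called. It encodes P-glycoprotein, the pump that returns many drugs to the blood, and lies on chromosome 5 from 8660077 to 8748575. Its lowest, median and highest values were 23.5, 31.4 and 40.3 CPM in D95N, against 34.9, 39.0 and 47.5 CPM in wild type. The groups overlapped, and 5 D95N libraries lay below every wild-type one. Abcb1a averaged 32.1 ± 6.30 CPM over the 7 D95N libraries and 39.9 ± 4.49 CPM (SD) over the 8 wild-type ones, or -0.31 ± 0.10 on the log2 fold scale (SE; edgeR, adjusted p = 0.0351). The call was lost in 8 of 15 fits that each left out 1 library. Its near copy Abcb1b was far lower, at 2.75 CPM in D95N and 2.82 CPM in wild type, and was not called.

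Slc2a1, the glucose transporter of the barrier, had 123, 174 and 187 CPM in D95N against 123, 144 and 195 CPM in wild type. Its ranges coincided, and the log2 fold change was 0.05 (edgeR, adjusted p = 0.741). Slco1a4, an organic anion carrier, averaged 47.2 ± 9.94 CPM in D95N and 57.9 ± 6.59 CPM in wild type, at -0.29 ± 0.11 (edgeR, adjusted p = 0.0608). It passed the threshold with library totals (adjusted p = 0.0372), upper-quartile factors, DESeq2, and without D95N 42 or D95N 44. Mfsd2a, which carries lysophospholipids with omega-3 chains into the brain, averaged 31.5 ± 11.8 CPM in D95N and 26.3 ± 3.004 CPM in wild type and was not called (edgeR, adjusted p = 0.250). The D95N mean of Mfsd2a was raised by D95N 21, at 55.1 CPM, and leaving it out gave a log2 fold change of 0.07, against 0.26 with it.

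Surface and secreted proteins held 2 lower members, 1 higher member and 2 that were not called, with a median log2 fold change of -0.40. Ly6a, known as Sca-1 and used as a marker of endothelium and of stem cells, lies on chromosome 15 from 74994877 to 74998031. It had 11.8, 18.0 and 19.5 CPM in D95N, against 17.9, 22.2 and 48.2 CPM in wild type. Only 3 D95N values were under the wild-type range, and WT 32 stood alone at the top. Ly6a averaged 17.1 ± 2.61 CPM over the 7 D95N libraries and 25.4 ± 10.2 CPM (SD) over the 8 wild-type ones, or -0.58 ± 0.19 on the log2 fold scale (SE; edgeR, adjusted p = 0.0332). Without WT 32 that value was -0.38 (edgeR, adjusted p = 0.0425), and the call was lost in 5 of the 15 fits that each left out 1 library. Ly6c1, a neighbouring gene of the same family on chromosome 15 from 75044018 to 75048830, had 16.7, 21.3 and 24.3 CPM in D95N, against 19.9, 26.0 and 44.1 CPM in wild type. Its groups overlapped in all but 2 D95N libraries. Means of Ly6c1 were 20.9 ± 2.90 CPM in D95N and 27.5 ± 7.54 CPM in wild type (log2 fold change -0.40 ± 0.14; edgeR, adjusted p = 0.0449). Without WT 32 it was -0.26 (edgeR, adjusted p = 0.0651), and the call was lost in 11 of the 15 fits. The related Ly6e, a gene of many cell types, was lower too, at 134 CPM in D95N and 165 CPM in wild type (edgeR, adjusted p = 0.00303). The treatment of reads that match several family members is not stated, which leaves the values of Ly6a and Ly6c1 uncertain to that extent.

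Egfl7, a secreted protein by which endothelial cells shape vessel tubes, rose. The gene lies on chromosome 2 from 26580014 to 26593120. Lowest, median and highest values were 22.4, 31.1 and 32.1 CPM in D95N, against 20.7, 23.6 and 27.9 CPM in wild type. Above every wild-type library stood 5 of 7 D95N libraries, and D95N 41 was the lowest of the 7. Egfl7 averaged 29.3 ± 3.45 CPM over the 7 D95N libraries and 23.6 ± 2.44 CPM (SD) over the 8 wild-type ones (log2 fold change 0.31 ± 0.08 SE; edgeR, adjusted p = 0.00772). Gm20532 overlaps Egfl7 on the same strand and was higher as well, at 29.5 CPM in D95N and 24.8 CPM in wild type (edgeR, adjusted p = 0.00165), so their reads may be shared. Vwf, the clotting factor stored in endothelial granules, averaged 35.9 ± 4.32 CPM in D95N and 52.2 ± 32.6 CPM in wild type. It had 30.6, 36.6 and 42.7 CPM in D95N, against 27.5, 41.5 and 128 CPM in wild type, where the 128 CPM came from WT 32. The log2 fold change of Vwf was -0.54 ± 0.26 (edgeR, adjusted p = 0.134) and without WT 32 it was -0.21. Itm2a, a membrane protein enriched in brain endothelium, averaged 40.4 ± 13.9 CPM in D95N and 43.5 ± 3.12 CPM in wild type and was not called.

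**Figure D2:**
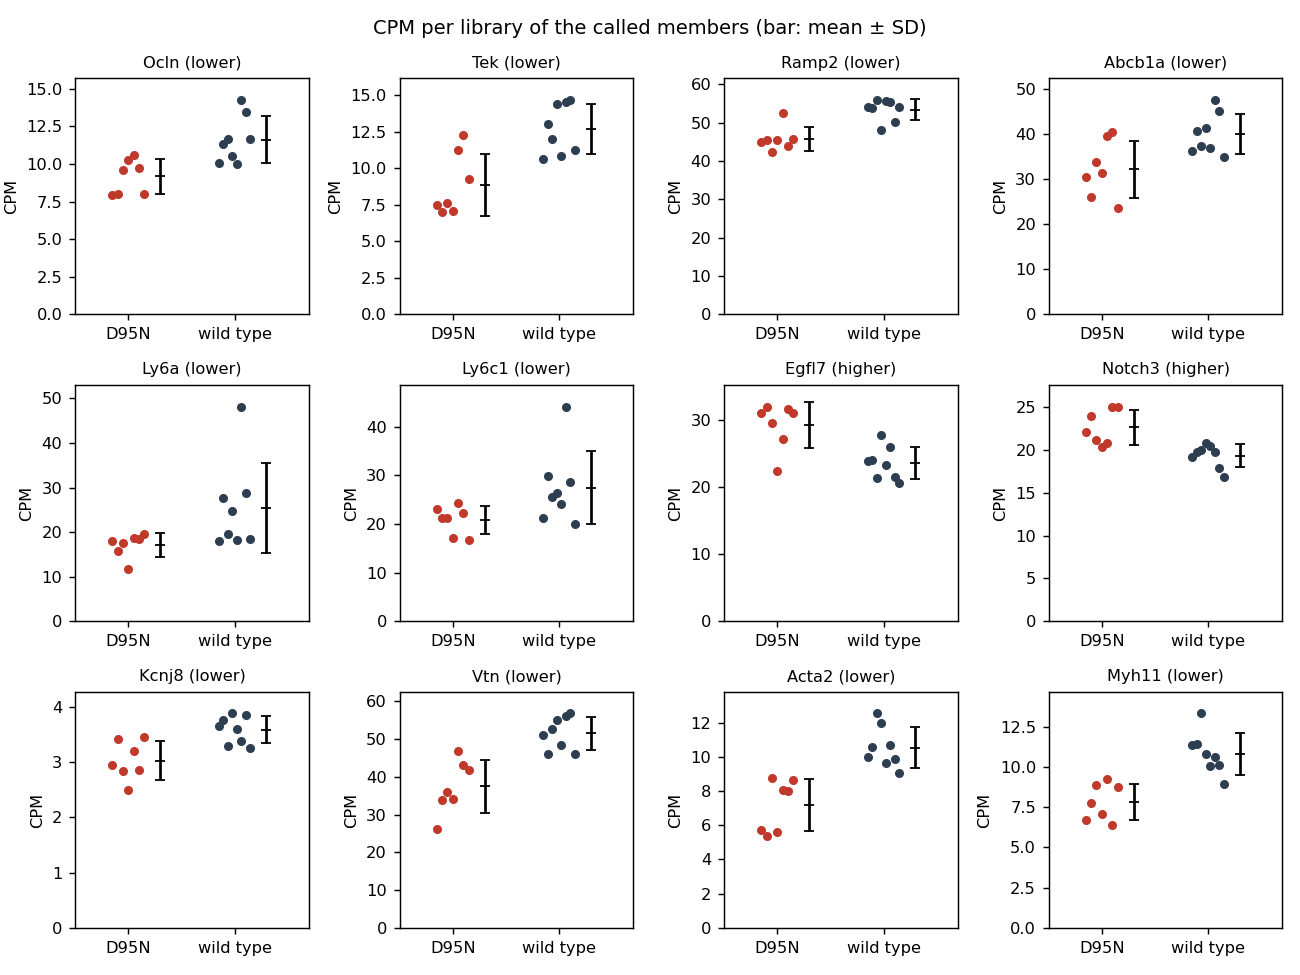
CPM of the 12 called members in every library, with D95N left of wild type in each panel, 1 point per library and a bar for the mean ± SD. Acta2 is the panel in which all 7 D95N points lie below all 8 wild-type points, while in the Ly6a and Ly6c1 panels 1 wild-type library stands apart at 48.2 and 44.1 CPM.

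Contractile genes of smooth muscle included 2 lower members of 4, Acta2 and Myh11. Acta2 encodes smooth muscle alpha-actin, on chromosome 19 from 34241090 to 34255590 (its promoter held the 2 CArG-like matches). It had 5.39, 7.98 and 8.76 CPM as lowest, median and highest values in D95N, against 9.06, 10.3 and 12.5 CPM in wild type. Every D95N value lay under every wild-type value, a separation that 1.47% of all tested genes showed. The lowest were D95N 28, D95N 41 and D95N 21. Means were 7.17 ± 1.52 CPM over the 7 D95N libraries and 10.5 ± 1.18 CPM (SD) over the 8 wild-type ones, or -0.56 ± 0.11 on the log2 fold scale (SE; edgeR, adjusted p = 0.00246). Acta1, the skeletal muscle actin of near-identical sequence, was not called, at -0.14 (edgeR, adjusted p = 0.571). Myh11, the smooth muscle myosin heavy chain, lies on chromosome 16 from 14194535 to 14291372. It had 6.42, 7.74 and 9.26 CPM in D95N, against 8.93, 10.7 and 13.3 CPM in wild type. All but 1 D95N library lay below the wild-type range. Myh11 averaged 7.83 ± 1.13 CPM in D95N and 10.8 ± 1.29 CPM in wild type (log2 fold change -0.47 ± 0.09; edgeR, adjusted p = 0.00204).

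Tagln, an actin-binding protein of smooth muscle, had 4.86, 8.19 and 19.5 CPM in D95N against 6.25, 7.54 and 9.42 CPM in wild type and was not called. The 19.5 CPM came from D95N 4 alone, and the log2 fold change was 0.23 ± 0.23 with that library and -0.09 without it. Des, the intermediate filament desmin, averaged 2.43 CPM in D95N and 2.48 CPM in wild type and was not called either.

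Of 8 pericyte genes, 2 were lower and 1 was higher, with a median log2 fold change of -0.12. Vtn encodes vitronectin, a matrix glycoprotein that brain pericytes make, on chromosome 11 from 78499091 to 78502324. Its lowest, median and highest values were 26.3, 35.9 and 46.9 CPM in D95N, against 46.1, 51.9 and 56.8 CPM in wild type. The groups touched through 1 D95N library, and the other 6 lay below. Vtn averaged 37.5 ± 6.97 CPM over the 7 D95N libraries and 51.6 ± 4.35 CPM (SD) over the 8 wild-type ones (log2 fold change -0.46 ± 0.10 SE; edgeR, adjusted p = 0.00256). Kcnj8, the pore of a potassium channel opened when ATP is low, lies on chromosome 6 from 142564837 to 142571614. It had 2.49, 2.95 and 3.45 CPM in D95N, against 3.26, 3.63 and 3.88 CPM in wild type, with 5 D95N libraries below every wild-type one. Its log2 fold change was -0.25 ± 0.09 (edgeR, adjusted p = 0.0412), a call lost in 9 of 15 fits without 1 library and without the low-count filter (adjusted p = 0.0601). Abcc9, the partner subunit of that channel, averaged 10.7 CPM in D95N and 11.4 CPM in wild type and was not called.

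Notch3, the Notch receptor of mural cells, rose. It lies on chromosome 17 from 32120820 to 32166852. Its values were 20.3, 22.1 and 25.1 CPM in D95N, against 16.9, 19.8 and 20.8 CPM in wild type, and 5 of 7 D95N libraries stood above every wild-type library. Notch3 averaged 22.6 ± 2.02 CPM over the 7 D95N libraries and 19.3 ± 1.32 CPM (SD) over the 8 wild-type ones (log2 fold change 0.22 ± 0.06 SE; edgeR, adjusted p = 0.00979). Rgs5, a regulator of G-protein signals and the mural member with most counts, had 90.6, 107 and 159 CPM in D95N against 99.6, 115 and 120 CPM in wild type, and was not called (log2 fold change 0.03; edgeR, adjusted p = 0.827). Pdgfrb, the receptor through which PDGF-B recruits pericytes, averaged 18.5 ± 1.22 CPM in D95N and 20.4 ± 1.62 CPM in wild type, at -0.14 ± 0.06 (edgeR, adjusted p = 0.0709). All 7 D95N values of Pdgfrb lay below the wild-type median, and it passed the threshold with library totals (adjusted p = 0.0333), upper-quartile factors, a GC and length correction, and without D95N 50 or WT 30. Anpep, an aminopeptidase known as CD13, averaged 2.91 CPM in D95N and 3.64 CPM in wild type, and Higd1b averaged 1.52 CPM in D95N and 1.599 CPM in wild type. Neither was called.

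Members also differed in level. Per kilobase of exon, the levels in D95N were led by Slc2a1 at 45.2, Rgs5 at 24.9, Itm2a at 23.1 and Vtn at 18.5 CPM per kb. In wild type the leaders were Slc2a1 at 43.5, Vtn at 25.4, Itm2a at 24.9 and Rgs5 at 24.4 CPM per kb. The lowest were Des and Anpep, at 0.648 and 0.704 CPM per kb in D95N and 0.660 and 0.880 CPM per kb in wild type. Summed over the endothelial members, D95N libraries ran from 587 to 721 CPM with a median of 685, and wild-type libraries from 627 to 988 CPM with a median of 716. Mural sums ran from 201 to 291 CPM in D95N and from 227 to 270 CPM in wild type.

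**Figure D3:**
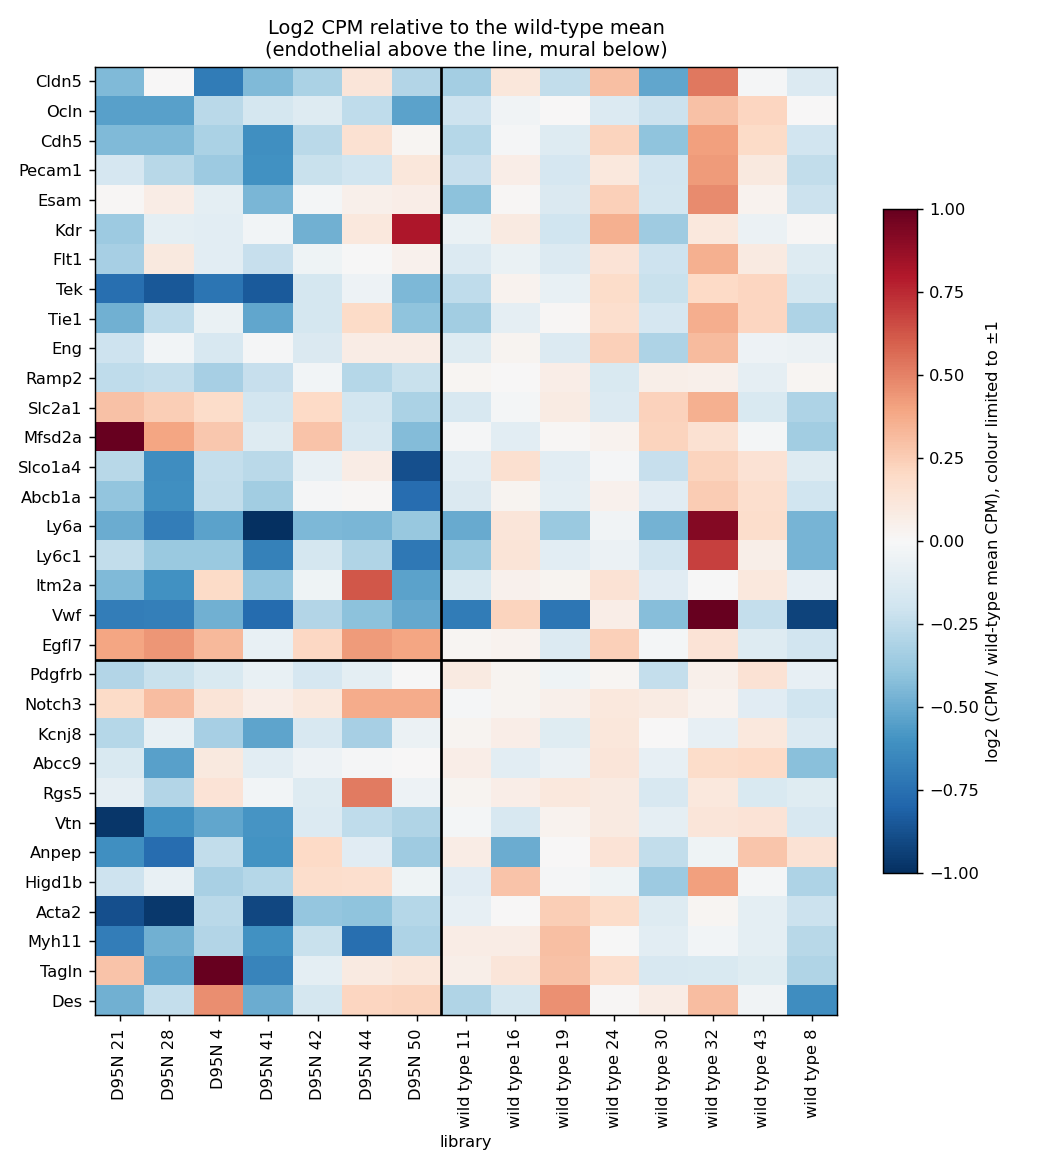
Log2 CPM of the 32 members in each of 15 libraries, relative to the wild-type mean, with D95N columns left of the wild-type columns and mural genes under the line. Blue is below and red above the wild-type mean, with colour limited to 1. Wild type 32 is red for most endothelial genes, while D95N 41 is blue for all 20 and wild type 11 for 18. Single dark cells mark Mfsd2a in D95N 21, Kdr in D95N 50 and Tagln in D95N 4.

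Single libraries carried much of the endothelial spread. WT 32 held the highest of the 15 values in 14 of 20 endothelial members, and in 1 mural member. D95N 41 lay below the wild-type mean in 20 of 20 endothelial members, and D95N 41 and D95N 50 each held the lowest value in 5. Wild-type libraries were often below that mean too, WT 11 in 18 members and WT 30 and WT 8 in 17 each. The other D95N libraries were below it in 10 to 17. In mural members, WT 43 held the highest value in 4 and D95N 28 the lowest in 4. Of the 12 called members, 8 kept their call in each of the 15 fits without 1 library, namely Ocln, Tek, Ramp2, Egfl7, Notch3, Vtn, Acta2 and Myh11. Without WT 32, 4 endothelial members were lower.

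Within a genotype the endothelial members did not all move together. With each gene centred within genotype, Ly6a followed the mean of the other endothelial members with a Pearson r of 0.91 over 15 libraries, Esam with 0.87, Vwf with 0.87 and Cdh5 with 0.83. Kdr, Mfsd2a and Ramp2 did not, at 0.11, 0.0057 and -0.11. Without WT 32 the values of Ly6a, Esam, Vwf and Cdh5 were 0.83, 0.79, 0.77 and 0.79. Those of Kdr, Mfsd2a and Ramp2 were then 0.042, -0.12 and -0.34. Among mural members Acta2 had 0.93 and Des 0.75, while Kcnj8 had 0.15. Outside the set, the genes most like the endothelial mean were Nos3 at 0.90, Lsr at 0.88, Exoc8 at 0.86, Slc38a5 at 0.84 and Igfbp7 at 0.83, which without WT 32 were 0.84, 0.77, 0.85, 0.69 and 0.68. Nos3 encodes the nitric oxide synthase of endothelium, and Lsr a junction protein of the brain barrier. The genes most like the mural mean were Lox at 0.87, Ccdc71l at 0.83, Gtf3c4 at 0.83 and Psma3 at 0.81, and an identifier without a symbol at 0.81. These are descriptions only, because genes measured in the same library share its composition and depth, which differ between libraries.

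Genes of the 3 signalling lists were called in both directions. Shares over all tested genes, 15.2% higher and 11.6% lower, stand beside the counts of these and the following lists. Of 21 tested genes of VEGF, angiopoietin and Notch signalling, 8 were higher and 1 was lower, with a median log2 fold change of 0.05, which was -0.04 under a GC and length correction. Hes1, a transcription factor turned on by Notch, had 10.8, 13.5 and 15.7 CPM in D95N against 7.76, 8.28 and 10.1 CPM in wild type. All 7 D95N libraries lay above the wild-type range, as for 1.81% of all tested genes, and Hes1 was 1.55-fold higher (edgeR, adjusted p = 0.000191). Nrp1 and Nrp2, co-receptors of VEGF, were 1.46-fold and 1.26-fold higher. Dll4, a Notch ligand of arterial endothelium, averaged 4.10 CPM in D95N and 2.79 CPM in wild type, and Angpt2, the angiopoietin that opposes TIE2 signalling, averaged 4.69 ± 3.68 CPM in D95N and 1.86 ± 0.385 CPM in wild type (edgeR, adjusted p = 0.00817). Angpt1, the ligand that activates TIE2, was the lower one, at 8.03 CPM in D95N and 10.2 CPM in wild type (edgeR, adjusted p = 0.0265). Notch4, Hey1 and Hey2 were the other 3 higher genes. Many of these genes are also expressed by neurons or glia, so the cell of origin is not known from these libraries.

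PDGF, TGF-beta and BMP signalling was split, with 4 of 18 genes higher and 4 lower, or 5 and 4 by DESeq2. Tgfb1, a cytokine of many cells, was 2.27-fold higher at 15.2 ± 6.63 CPM in D95N and 6.66 ± 0.938 CPM in wild type, and Pdgfb, the ligand that draws pericytes to vessels, was 1.62-fold higher at 41.6 ± 10.5 CPM in D95N and 25.6 ± 2.77 CPM in wild type (edgeR, adjusted p = 0.00111 for Tgfb1 and 0.00146 for Pdgfb). Tgfb3 was 1.25-fold higher, with all 7 D95N libraries above the wild-type range. The lower genes were Tgfbr3, Id1, Id2 and Bmp6. Of 17 genes of the Wnt signal that builds the barrier, 2 were higher and 3 lower. Wnt7a, a ligand that neural cells send to endothelium, fell to 0.683 of wild type, while its co-receptor Adgra2 was 1.53-fold higher and Ctnnb1, the signal's effector beta-catenin, 1.14-fold higher (edgeR, adjusted p = 0.00165, 0.00284 and 0.0158 in that order of genes). Lrp6 and Sox17 were the other lower genes.

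Other barrier transporters were called often and in both directions, with 6 of 20 higher and 5 lower. With library totals these were 4 higher and 6 lower, and with upper-quartile factors 4 higher and 5 lower. Tfrc, the transferrin receptor, had 135, 163 and 203 CPM in D95N against 99.9, 110 and 128 CPM in wild type, and Slc30a1, a zinc exporter, was 1.38-fold higher. Both had all 7 D95N libraries above the wild-type range. In 2 of the lower genes all 7 lay below it, and 1 of these was Slc22a8, at 0.753 of wild type. Slc38a5 at 0.525 of wild type, Slc19a3 at 0.756 and Slc6a6 at 0.909 were lower too, with groups that overlapped. Of 17 other junction genes, 5 were lower and none higher, with a median of -0.13. A GC and length correction gave 3 lower, and library totals 6. The 5 lower genes of the main fit were Ctnna1, Afdn at 0.926 of wild type, Cldn12 at 0.929, Jam2 and Podxl. Ctnna1 (alpha-catenin) stood at 0.855 of wild type, with all 7 D95N libraries below the wild-type range. The Cldn12 call was lost in 12 of 15 fits without 1 library.

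Caveolae, the membrane pits used for transcytosis, had 2 of 9 genes higher and none lower. Cavin1 was 1.62-fold and Cavin3 1.29-fold higher, while Cav1, the coat protein, averaged 18.5 CPM in D95N and 16.7 CPM in wild type and was not called. Arterial and venous genes had 3 of 13 lower and none higher. Car4, a carbonic anhydrase of capillaries, stood at 0.821 of wild type, the venous receptor Ephb4 at 0.767 and the arterial ligand Efnb2 at 0.899 (edgeR, adjusted p = 0.0138, 0.0285 and 0.0337 in that order). The Ephb4 call was lost without WT 43 and the Efnb2 call in 8 of 15 fits. Endothelial activation and haemostasis had 3 of 16 genes higher and 2 lower, against 15.2% higher and 11.6% lower of all tested genes. The counts became 3 higher and 4 lower with library totals, upper-quartile factors or DESeq2. Ackr1, a chemokine scavenger of venules, was 1.34-fold higher, and Plat, the tissue plasminogen activator, 1.29-fold higher. Exons of Cadm3 overlap those of Ackr1, so some reads counted for Ackr1 may come from Cadm3. Lrg1 and Tfpi were lower.

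Basement membrane genes included 3 higher and 1 lower of 14, against 15.2% higher and 11.6% lower of all tested genes. Col4a1 and Col4a2, the main collagen chains of vessel basement membranes, were 1.58-fold and 1.53-fold higher, Lamc1 was 1.13-fold higher, and Lamb2 was lower. Of 23 other pericyte and smooth muscle genes, 3 were higher and 5 lower, with a median of -0.10. The higher ones were Mylk, the kinase of myosin light chain, at 1.85-fold, Tpm1 at 1.56-fold and Tpm2, and other cells express all 3 as well. The lower ones were Tbx18 at 0.702, a transcription factor of mural cells, and Myl9, Lmod1, Pln and Itga8, which are smooth muscle genes. Mylk had 24.6, 50.6 and 60.5 CPM in D95N against 23.0, 24.8 and 31.5 CPM in wild type, with 6 of 7 D95N libraries above the wild-type range (edgeR, adjusted p = 0.000386).

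**Figure D4:**
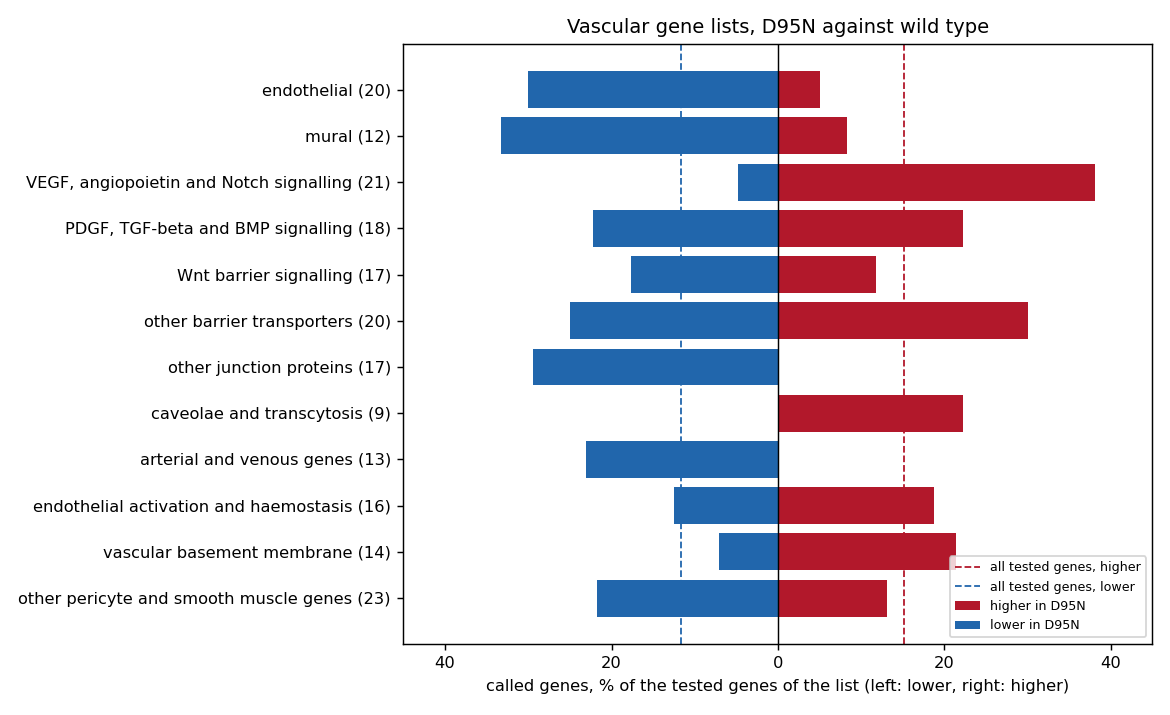
Share of tested genes called lower (left, blue) and higher (right, red) in D95N against wild type, for the endothelial and mural members and for 10 related gene lists, with the number tested in brackets. Dashed lines mark the shares over all tested genes, 11.6% lower and 15.2% higher. The blue bars of endothelial and mural members pass the dashed line, as do those of 7 of the 10 related lists, and VEGF, angiopoietin and Notch signalling has the longest red bar, with 8 of 21.

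Some lists of markers for other cells were mostly lower in D95N, and others were not. Over all tested genes, 15.2% were higher and 11.6% lower. Of 8 red cell markers 5 were lower and 1 was higher. Hbb-bs, a beta globin, averaged 41.8 ± 21.5 CPM in D95N and 89.6 ± 51.6 CPM in wild type. The sum over the 8 ran from 346 to 442 CPM with a median of 400.1 in D95N, and from 351 to 550 CPM with a median of 405 in wild type. Of 16 markers of meningeal and perivascular fibroblasts 7 were lower and 1, Col3a1, was higher, and their sum ran from 114 to 233 CPM in D95N and from 206 to 282 CPM in wild type. All 4 neutrophil markers tested by edgeR were lower, but none was called by limma-voom, where 1 had an unadjusted p under 0.05, and sums over the list ran from 1.01 to 3.70 CPM in D95N and from 0.916 to 34.1 CPM in wild type. Mmp8 and Retnlg were at 0 in at least 1 D95N library. Of 6 markers of perivascular macrophages 2 were lower, and their sum ran from 10.7 to 19.1 CPM in D95N and from 11.4 to 18.9 CPM in wild type. Astrocyte endfeet had 1 of 8 higher and 2 lower, with sums of 965 to 1209 CPM in D95N and 1042 to 1157 CPM in wild type. Choroid plexus had none of 8 called by edgeR or DESeq2 and 1 at an unadjusted p under 0.05, with sums of 203 to 1162 CPM in D95N and 284 to 1083 CPM in wild type. Skeletal muscle had none of 7 called by edgeR and 0 at an unadjusted p under 0.05, and by DESeq2 none of 9 and 2. Oligodendrocytes had none of 6 called by edgeR or DESeq2 and 1 at an unadjusted p under 0.05, with sums of 5538 to 7156 CPM in D95N and 6039 to 7390 CPM in wild type. Neurons had 3 of 7 higher and 1 lower, or 2 and 2 with library totals. Microglia had 1 of 7 higher, Aif1, and 1 lower besides with library totals, with sums of 342 to 460 CPM in D95N and 401 to 496 CPM in wild type.

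Red cell and fibroblast markers were low or high in some of the libraries in which vessel genes were, and not in others. The mean log2 level of red cell markers relative to wild type was lowest in D95N 41, at -1.35, and highest in WT 32, at 0.93, which were also the extremes of the endothelial mean, at -0.38 and 0.40. D95N 42 was the D95N library nearest the wild-type mean in red cell markers, at -0.03. The fibroblast mean was lowest in D95N 21 and D95N 28, at -1.07 and -0.81, where the mural mean was -0.33 and -0.36. D95N 41, with a mural mean of -0.38, had a fibroblast mean of -0.22, and WT 8, with a mural mean of -0.21, had a fibroblast mean of -0.0032. D95N 44 had a red cell mean of -0.84 and an endothelial mean of 0.0036, the highest of the D95N libraries. D95N 4 had a fibroblast mean of -0.42 and a mural mean of 0.02, also the highest of the D95N libraries. That mural mean included Tagln at 1.34 above its wild-type mean on the log2 scale, and the mean of the pericyte genes in D95N 4 was -0.14. With both the red cell and fibroblast means as terms in the fit, no endothelial and no mural member was called by edgeR, and 4 genes were higher and 9 lower in the whole table. At an unadjusted p under 0.05, 4 endothelial members were then higher and 1 was lower, and 1 mural member was higher and 1 lower. The share of all tested genes at that unadjusted threshold was not taken for this fit, so these counts have no background beside them. A negative log2 fold change was left in 5 of 20 endothelial and 5 of 12 mural members, against 16 and 9 without the terms. The median standard error then was 0.105 against 0.065 without the terms. In that fit the log2 fold change of Acta2 was -0.23, of Myh11 -0.34, of Ramp2 -0.18, of Egfl7 0.36 and of Notch3 0.23, with Tek at 0.0064, Ocln at -0.03, Vtn at -0.05, Abcb1a at 0.01 and Ly6a at 0.17. With the red cell mean alone, 1 endothelial member was higher and none was lower, and 7 endothelial and 7 mural members had a negative value. With the fibroblast mean alone, 1 endothelial member, Ramp2, was lower and 15 endothelial and 7 mural members had a negative value. Both single terms were added after the data were seen. Since both means were themselves lower in D95N, they and genotype cannot be told apart in these fits.

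**Figure D5:**
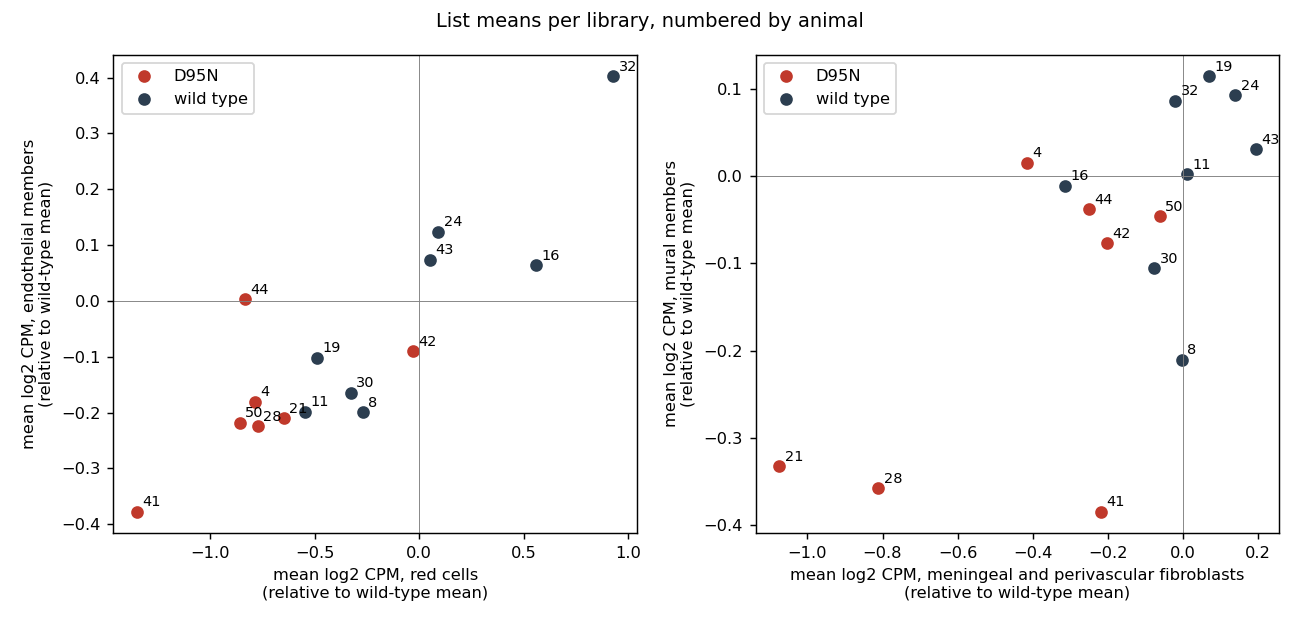
Mean log2 CPM of each list per library, relative to the wild-type mean and numbered by animal, with D95N in red and wild type in dark blue. The left panel sets endothelial members against red cell markers, with D95N 41 lowest and wild type 32 highest on both axes. The right panel sets mural members against fibroblast markers, where D95N 21 and D95N 28 are low on both.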

How the data were processed

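RNA from 15 tissue samples was extracted with Trizol and sequenced on Illumina libraries, per the labels' protocols. The authors deposited 1 table per sample with whole-number read counts per gene. STAR, featureCounts and the build GRCm38 are named, per the submitters' processing notes. Their versions, the annotation, strand setting and treatment of multi-mapping reads were not given in the sources used here. No other column of per-sample values was left aside (0). Symbols were found for 22214 of 22524 identifiers, in GENCODE's annotation of the same build.

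From the counts as deposited, edgeR 4.0.16 (R 4.3.3) was run with TMM factors, its default expression filter (a minimum count of 10) and genotype as the 1 term, with Benjamini-Hochberg adjustment at 0.05 over 14989 genes. The test was tested on simulated data. CPM use TMM factors, and log2 CPM use a prior count of 2. List means per library average log2 CPM minus the wild-type mean. Groups and animal numbers come from the labels, and no batch is labelled. Tables were handled in Python 3.11.15.

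The members, the gene lists (10 of related pathways, 10 of markers for other cells) and the tests were chosen with earlier results of these data known. Values are given per group for called members and for the member of highest CPM per role, and up to 3 called genes of smallest p per pathway list are described. Other genes are named to complete a count and were chosen after their values were seen. Alternatives were other scalings, no filter, DESeq2 1.42.0, limma-voom (limma 3.58.1), a GC and length correction, marker means as terms, and each library left out. Some genes that belong to these lists are counted but not reported by name here.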

Additional observations from a re-analysis of the deposited data

Results flagged for a closer look

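In 20 of 166 groups of libraries that were checked, 1 library stood apart from the others by Dixon's test, where chance gives about 1 in 20. WT 32 was the high library in 9 of them. It had 31.3 CPM of Pecam1 against at most 25.0 CPM in the other wild-type libraries, 48.2 CPM of Ly6a against at most 28.7 CPM, 44.1 CPM of Ly6c1 against at most 29.96 CPM, 128 CPM of Vwf against at most 60.8 CPM and 10.4 CPM of Ephb4 against at most 7.53 CPM. Its summed CPM was 988 over the endothelial members, 183 over arterial and venous genes, 276 over endothelial activation and haemostasis and 34.1 over neutrophil markers. WT 24 was the high library for Nrp1 at 52.9 CPM, Ctnnb1 at 603 CPM and Mylk at 31.5 CPM, and in the sums of Wnt barrier signalling at 889 CPM and of other pericyte and smooth muscle genes at 410.3 CPM. WT 19 was high in the summed skeletal muscle markers, at 113 CPM.

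Among D95N libraries, D95N 50 was high in Kdr at 22.7 CPM, D95N 21 in Mfsd2a at 55.1 CPM, D95N 42 in Ramp2 at 52.5 CPM and D95N 4 in Tagln at 19.5 CPM. D95N 41 was low in Esam, at 10.6 CPM against at least 13.6 CPM in the other D95N libraries.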

How the results depend on the processing

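Of 12 called members, 9 kept their call and direction under the other scalings, no low-count filter, DESeq2, limma-voom and the GC and length correction, the exceptions being Ly6a (adjusted p = 0.0524) and Ly6c1 (adjusted p = 0.0606) with limma-voom and Kcnj8 without the filter. Fits without 1 library gave 3 to 7 lower endothelial and 3 to 5 lower mural members, 1 higher member of each kind, and 1952 to 2694 higher and 1305 to 2282 lower genes in all. Lower endothelial members numbered 3 without D95N 21, D95N 28, D95N 41, WT 16 or WT 43. The red cell and fibroblast means as terms moved the counts most. With both there were 0 higher and 0 lower endothelial members, 0 and 0 mural members, and 4 and 9 genes in all. Tek (0.0064), Abcb1a (0.013) and Ly6a (0.17) then changed sign on the log2 scale. With the fibroblast mean alone there were 0 higher and 1 lower endothelial members, 0 and 0 mural members, and 636 higher and 366 lower genes. With the red cell mean alone there were 1 higher and 0 lower endothelial members, 0 and 0 mural members, and 527 higher and 318 lower genes, and Ly6a (0.062) and Ly6c1 (0.042) changed sign. The cause was not tested. Among members that were not called, 46 of 520 values over 26 alternatives changed sign. Without D95N 41 and 42, 2949 genes were higher and 2546 lower.

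No analysis paired by litter was possible because the labels do not say which animals shared a litter, so litter is not a term in any fit. Genes of few counts, such as Higd1b, Des, Anpep and Kcnj8, are measured with less precision, and intervals were not drawn for single libraries.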
